A study of Homo sapiens with 12 samples.

Results

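Keratins are the intermediate filament proteins of epithelial cells, and this account follows every keratin gene in 3 lung cancer cell lines before and during dormancy under drug. The members were all rows of the deposited expression table whose gene symbol is KRT followed by a number and, in some, the letter A, B or C, without pseudogenes and without the keratin-associated proteins. This rule found 55 genes among the 57905 rows of the table. Of these, 29 encode type I and 26 type II keratins. The RefSeq annotation places 27 on chromosome 12 and 28 on chromosome 17.

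A keratin filament is built from heterodimers of an acidic type I and a basic type II chain, so cells normally make both types in balance, often in fixed pairs. Simple epithelia, which include the gland-like cells that lung adenocarcinoma resembles, are known for KRT8 with KRT18, and for KRT7 and KRT19. Basal cells of stratified epithelia make KRT5 with KRT14, and keratinocytes of wounded or irritated skin switch on KRT6A, KRT6B, KRT16 and KRT17, often called the stress keratins.

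RNA was measured by sequencing of stranded mRNA libraries from PC9, HCC827 and HCC4006, established human non-small cell lung cancer lines that carry a mutant EGFR gene. Each line gave 2 control libraries from cells kept 24 hours in the solvent DMSO on 10 cm plates, and 2 libraries from cells the labels call dormant. Dormant cells had 100 nM osimertinib, an inhibitor of EGFR, together with 30 nM of the MEK inhibitor trametinib for 2 weeks on 15 cm plates, so drug, duration and plate cannot be told apart. Plates were set up in duplicate, and nothing says that they came from separate cultures, so p-values measure only the spread between these 12 samples. Values are the authors' FPKM, fragments scaled to transcript length and library size, given for the first and then the second library of a group. Differences subtract DMSO from dormant values after a log2(FPKM + 1) transform and carry the SE of a limma fit whose estimate of the spread is shared by all 6 groups, and folds are ratios of mean FPKM. A gene is called where the adjusted p over all 14699 genes tested is under 0.05.

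The values analysed here are not counts, so the absolute depth is unknown. The spacing of low values put the second HCC4006 dormant library at 37.5% and all others at 67.6% to 104%, taking the first DMSO library of PC9 as 100%. The same HCC4006 library listed 1948 tested genes at 0, against 368 to 802 elsewhere, and correlated with its replicate with r = 0.654 across tested genes, which are not independent replicates. The second HCC827 DMSO library correlated with its replicate with r = 0.909, and the other groups reached 0.979 to 0.991. In both of these libraries the simple keratins were low. KRT7, KRT8, KRT18 and KRT19 lay 2.85 to 3.73 log2 units below the replicate in HCC827 DMSO and 3.02 to 6.64 below it in HCC4006 dormant, where the median of 96 other highly expressed genes moved by 0.29 and -2.0. Those 96 genes were chosen by their mean FPKM over the other 10 libraries. Such a choice can itself favour a drop in the 2 libraries it left out. Counts of called keratins, and many single differences, are therefore also given without these 2 libraries, an alternative chosen after the data were seen. In that fit 1 library stands for each of the groups they leave and is assumed to vary like the others.

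Of the 55 keratins, 18 reached 1 FPKM in at least 2 libraries and were tested, 9 of each type. They were 4 of 5 simple, 3 of 3 basal, 4 of 5 stress, 3 of 9 differentiation, 1 of 9 root sheath and 2 of 17 hair shaft keratins, with 1 of 7 others. Another 31 stayed below 1 FPKM in every library, 7 of which were listed at 0 throughout, among them KRT20, a keratin of intestinal and urothelial cells. The remaining 6 reached 1 FPKM in 1 library only.

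Keratin transcripts were abundant. In the 10 libraries other than those 2, all keratins together took 0.709% to 2.97% of the summed FPKM, and the 4 simple keratins KRT7, KRT8, KRT18 and KRT19 made up 87.4% to 99.6% of the keratin total. PC9 had the most, with 18056 and 17689 FPKM in DMSO and 16176 and 26015 in dormant cells. HCC827 had 11248 and 1159 in DMSO, the second being one of the libraries that stood apart, and 9847 and 9527 in dormant cells. HCC4006 had 11965 and 10622 in DMSO and 5632 and 603 in dormant cells, the second dormant library again being one that stood apart. No test was applied to these sums. In bulk RNA, fewer cells with a transcript and less transcript per cell cannot be told apart, here and below.

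**Figure D1:**
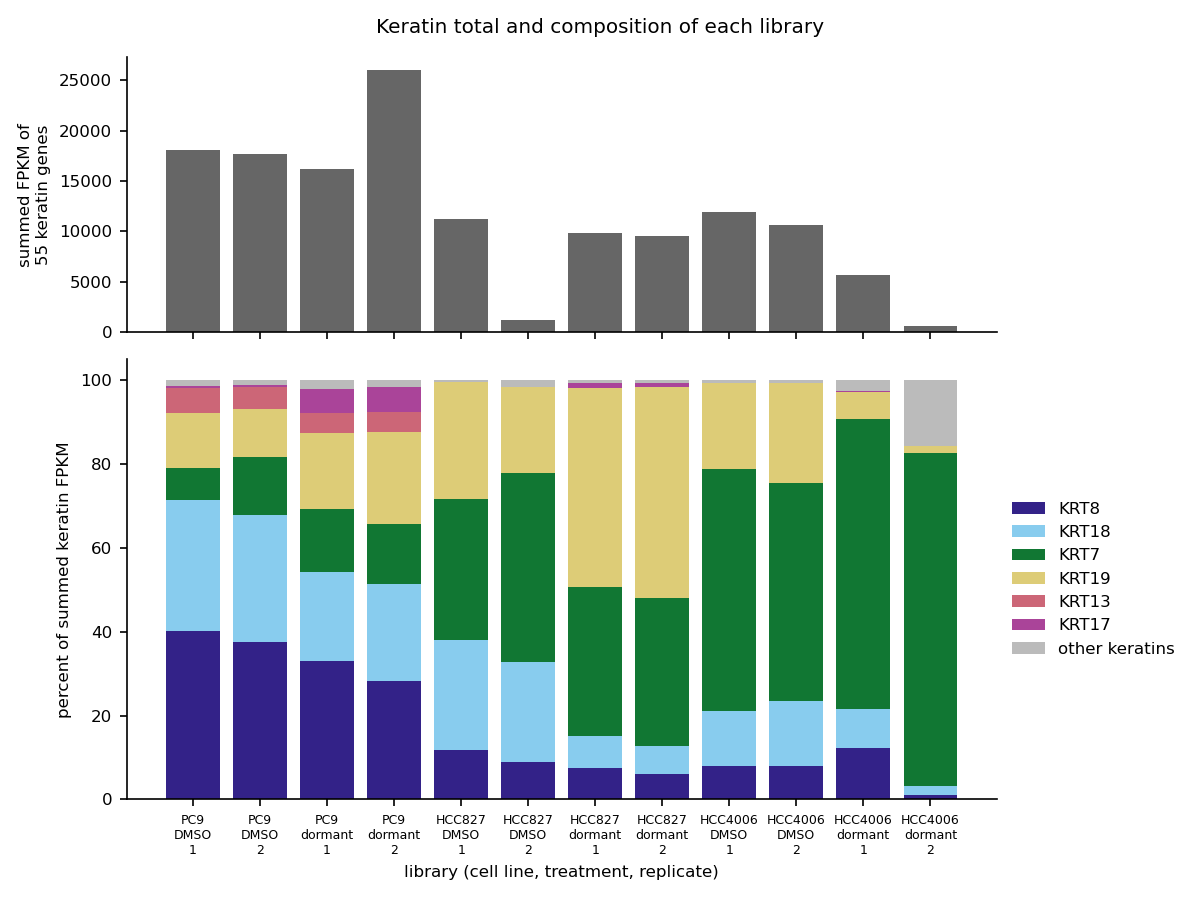
Summed FPKM of the 55 keratin genes (upper bars) and the percent of that sum taken by KRT8, KRT18, KRT7, KRT19, KRT13, KRT17 and all others (lower stacked bars) in each of the 12 libraries. PC9 is led by KRT8 and KRT18, HCC827 by KRT7 or KRT19 and HCC4006 by KRT7, and the second HCC827 DMSO and second HCC4006 dormant libraries hold the smallest totals, 1159 and 603 FPKM.

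Across the mean of the 3 lines, 6 of the 18 tested keratins were called, 3 higher and 3 lower in dormant cells. Among all tested genes 15.4% were called, 10.9% higher and 4.55% lower. KRT14, KRT16 and KRT17, which are type I chains, rose. KRT5, KRT6A and KRT6B, which are type II chains and include their usual partners, fell. The median difference of the 18 keratins was -0.11, against 0.22 for all tested genes. That median of all genes moved to 0.03 under quantile normalization and under median of ratios scaling, and the 6 calls kept their direction and side of the threshold under both. Without the 2 libraries that stood apart, 12 of 18 were called, 5 higher and 7 lower, beside 42.9% of all tested genes.

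Within single lines fewer keratins were called. PC9 had 4, with 1 higher and 3 lower, beside 2.71% of all tested genes, 1.82% higher and 0.891% lower. HCC827 had 1, which was higher, beside 4.5%, of which 3.06% higher and 1.44% lower. HCC4006 had 2, both lower, beside 6.07%, of which 4.88% higher and 1.18% lower. Without the 2 libraries these counts became 8, 7 and 7 of 18, beside 21.7%, 17.7% and 18.6% of all tested genes. Outside PC9, KRT14, KRT5 and KRT6B stayed below 1 FPKM. For these 3 of 18 keratins dormant minus DMSO varied between lines by a moderated F test, beside 1.48% of all tested genes. That count was 9, beside 8.92%, without the 2 libraries.

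Some of these calls depended on how low values were handled. With a pseudocount of 0.1 the mean over lines lost KRT16 (adjusted p 0.125), KRT5 (0.118) and KRT6A (0.0954), PC9 lost KRT6A (0.322), HCC4006 lost KRT75 (0.0806), and the F test lost KRT14 (0.136), KRT5 (0.114) and KRT6B (0.085). With no filter on low values the calls of KRT16 in the mean (0.079), KRT6A in PC9 (0.0689), and KRT15 and KRT75 in HCC4006 (0.0501 and 0.0976) were lost. With the 3 lines as the replicates limma called none of the 18 in the mean, with 3 at an unadjusted p under 0.05.

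**Figure D2:**
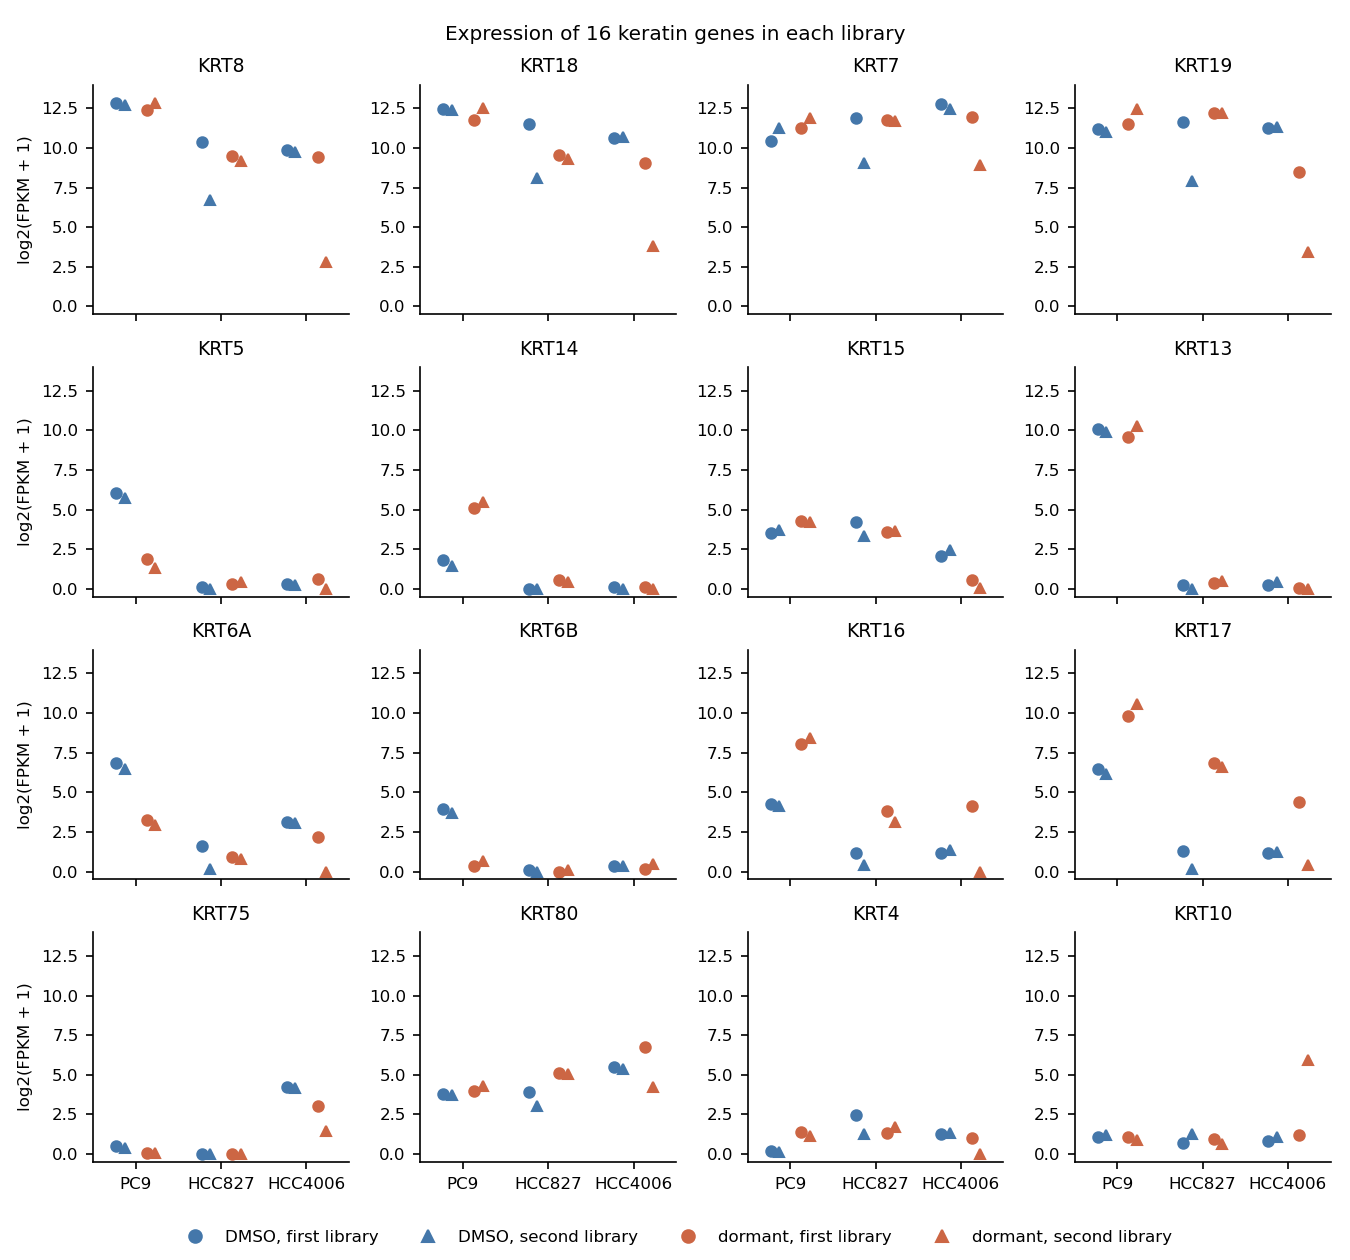
Expression of 16 keratin genes in every library as log2(FPKM + 1), by cell line, with DMSO in blue, dormant in orange, circles for first and triangles for second libraries. KRT17 and KRT16 stand higher in dormant than in DMSO cells in PC9 and HCC827, KRT5, KRT6A and KRT6B stand lower in dormant PC9, and the second HCC4006 dormant library sits far below its replicate for KRT8, KRT18 and KRT19.

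In PC9 the called keratins split by type within the basal and the stress group: the type II chains fell, and the type I chain KRT14 rose. KRT5, the type II chain of basal keratinocytes, stood at 65.6 and 51.4 FPKM in DMSO and at 2.76 and 1.46 in dormant cells, 27.7-fold lower. Its difference was -4.28 ± 0.35 (adjusted p 0.000186). KRT14, the chain KRT5 normally pairs with, went the other way, from 2.57 and 1.71 to 33.9 and 44.0 FPKM, 18.2-fold higher, with a difference of 3.67 ± 0.29 (adjusted p 0.00016). The DMSO and dormant libraries of PC9 did not overlap for either gene. Both calls held with each of the 12 libraries left out in turn.

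Among the stress keratins of PC9, both tested type II chains fell and both type I chains had higher values without a call. KRT6A, a type II chain of wound-edge keratinocytes, stood at 116 and 89.3 FPKM in DMSO and 8.47 and 6.66 in dormant cells, 13.6-fold lower, with a difference of -3.60 ± 0.69 (adjusted p 0.0254). Its close copy KRT6B stood at 14.6 and 11.96 and then at 0.285 and 0.600 FPKM, 30.0-fold lower, with a difference of -3.31 ± 0.25 (adjusted p 0.000121). KRT16, a type I chain that usually pairs with KRT6 proteins, had 18.5 and 16.5 FPKM in DMSO and 262 and 343 in dormant cells, a ratio of 17.3. KRT17, the other type I stress keratin, had 86.2 and 70.9 and then 903 and 1515 FPKM, a ratio of 15.4. Neither type I gene was called in PC9 alone, with adjusted p of 0.0832 for KRT16 and 0.0936 for KRT17, although their PC9 groups did not overlap. With the 2 libraries left out, their PC9 values being unchanged, the adjusted p was 3.17e-05 and 2.97e-05. The KRT6A call in PC9 was lost, at an adjusted p of up to 0.235, when any PC9 library, either HCC827 dormant library or either HCC4006 DMSO library was left out. The KRT6B call held in all 12 cases. KRT6B reached 1 FPKM in the PC9 DMSO libraries alone, so it passed the filter through the group where it was high.

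The ratio of type I to type II transcripts shows this split within each library. KRT14 over KRT5 was 0.0392 and 0.0333 in PC9 DMSO cells and 12.3 and 30.2 in dormant cells. KRT16 over KRT6A was 0.159 and 0.185 in PC9 DMSO cells and 30.9 and 51.5 in dormant cells. In HCC4006 the KRT16 to KRT6A ratio was 0.159 and 0.202 in DMSO cells and 4.77 in the first dormant library, and the second listed both genes at 0. In HCC827 the first DMSO library gave 0.590, and KRT6A was below 1 FPKM in the other 3 libraries. All type I keratins together made up 51.0% and 47.8% of keratin FPKM in PC9 DMSO and 51.9% and 57.1% in dormant cells.

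**Figure D3:**
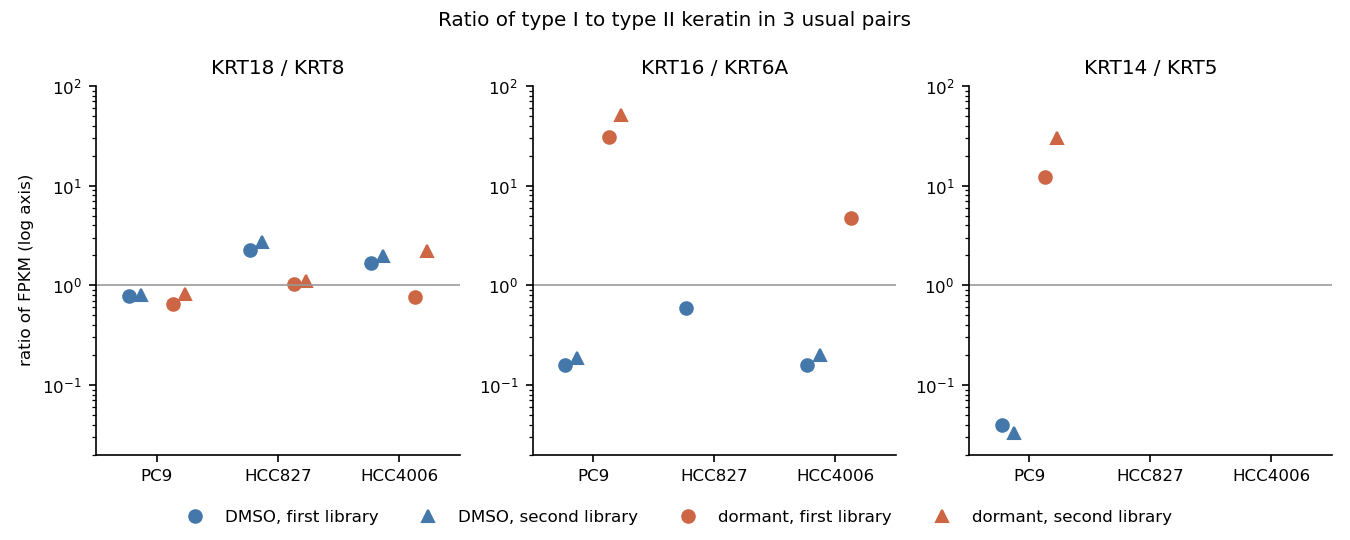
Ratio of FPKM of a type I to a type II keratin (log axis) in each library where both reach 1 FPKM, for KRT18 over KRT8, KRT16 over KRT6A and KRT14 over KRT5, with DMSO in blue, dormant in orange and a line at 1. KRT16 over KRT6A and KRT14 over KRT5 pass from below 1 in PC9 DMSO to above 10 in dormant PC9, and KRT18 over KRT8 is near 1 in dormant HCC827, down from 2.25 and 2.70 in DMSO.

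The split rests on genes of similar sequence, so it matters how far reads can tell them apart. In the longest open reading frames of the GENCODE v29 transcripts, KRT6A and KRT6B were identical at 97.5% of 1695 aligned bases, with an unbroken identical run of 269 bases, and KRT6A and KRT6C at 97.9%, with a run of 349. KRT14 and KRT16 shared 86.6% with a run of 158 bases, KRT14 and KRT17 85.2% with a run of 59, KRT16 and KRT17 79.1% with a run of 61, and KRT5 and KRT6A 81.7% with a run of 104. Of all 50-base stretches in its transcripts, KRT6B shared 47.1% with some other gene, KRT6A 32.1%, KRT14 16.8%, KRT16 16.5%, KRT17 9.02% and KRT5 2.17%. How shared reads were assigned is not given in the sources used here, so the split between KRT6A, KRT6B and KRT6C is uncertain, while KRT6C itself never passed 0.460 FPKM. KRT6A and KRT6B, which are close copies, both fell. KRT14, KRT16 and KRT17 also rose together in the mean over lines. The 60 bases in which a pair differs most are shown as an example of sequence that can separate its members. Below, capitals mark the bases that differ between KRT6A and KRT6B, coding bases 663 to 722 in both, shown because these windows hold the most differences (9) of any in this pair.
KRT6A: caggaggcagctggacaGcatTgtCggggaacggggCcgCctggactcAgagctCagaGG
KRT6B: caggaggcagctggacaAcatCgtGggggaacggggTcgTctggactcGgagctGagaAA

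KRT16 and KRT17 differ far more. Their most different 60 bases hold 24 differences, again in capitals, at coding bases 465 to 524 of KRT16 and 366 to 425 of KRT17.
KRT16: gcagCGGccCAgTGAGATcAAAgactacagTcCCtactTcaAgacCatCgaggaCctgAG
KRT17: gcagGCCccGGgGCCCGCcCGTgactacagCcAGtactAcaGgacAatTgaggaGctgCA

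KRT14 and KRT16 differ most near the end of their coding sequence, with 33 differences, at coding bases 1351 to 1410 of KRT14 and 1360 to 1419 of KRT16, where the tail of the protein is encoded.
KRT14: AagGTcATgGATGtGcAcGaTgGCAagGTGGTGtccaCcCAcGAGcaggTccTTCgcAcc
KRT16: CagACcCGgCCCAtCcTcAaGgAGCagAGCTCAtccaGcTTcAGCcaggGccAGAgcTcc

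KRT17 also rose in HCC827, and in HCC4006 its dormant libraries disagreed. It stood at 1.51 and 0.105 FPKM in HCC827 DMSO cells and at 114 and 94.2 in dormant cells, a difference of 5.97 ± 1.02 (adjusted p 0.0111). The dormant mean was 129-fold higher, or 69.0-fold higher than the first DMSO library alone. This call was lost without the second DMSO library (adjusted p 0.111) and without the first (0.111) or second dormant library (0.0888). In HCC4006 KRT17 stood at 1.23 and 1.38 FPKM in DMSO and at 19.6 and 0.335 in dormant cells, so the dormant libraries lay on opposite sides of the controls and no call was made (1.19 ± 1.02, adjusted p 0.45). With the 2 libraries left out the HCC4006 difference was 3.16 ± 0.33 (adjusted p 0.00043) and the HCC827 difference 5.38 ± 0.33 (adjusted p 3.44e-05). In the mean over lines the difference was 3.68 ± 0.59 (adjusted p 0.00343), a call that held with each library left out in turn, and 4.14 ± 0.18 (adjusted p 1.68e-06) without the 2 libraries.

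KRT16 followed KRT17 at lower levels. It stood at 1.23 and 0.325 FPKM in HCC827 DMSO cells and at 13.3 and 7.61 in dormant cells, and at 1.24 and 1.52 in HCC4006 DMSO cells and 16.5 and 0 in dormant cells. Neither line was called on its own, with adjusted p of 0.198 and 0.614. When both libraries were left out the differences were 2.31 ± 0.35 (adjusted p 0.00241) in HCC827 and 2.88 ± 0.35 (adjusted p 0.000837) in HCC4006. The mean over lines was 2.51 ± 0.60 (adjusted p 0.0205), and 3.07 ± 0.19 (adjusted p 7.92e-06) without those 2. That call was lost, at adjusted p of up to 0.0706, when any 1 of 8 libraries was left out, all but the first HCC827 DMSO, the second HCC827 dormant and both HCC4006 dormant libraries.

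KRT14, KRT16 and KRT17 follow each other on chromosome 17, but KRT14 was nearly silent outside PC9. It was listed at 0 in both HCC827 DMSO libraries and at 0.470 and 0.380 FPKM in dormant ones, and stayed at or below 0.095 FPKM in HCC4006. Its difference was 0.51 ± 0.29 in HCC827 and 0.02 ± 0.29 in HCC4006, and the F test between lines gave an adjusted p of 0.00381. For KRT16 and KRT17 the F test gave 0.472 and 0.317, and 0.0394 for KRT17 without the 2 libraries. KRT5 and KRT6B were likewise near 0 outside PC9, at no more than 0.535 and 0.380 FPKM, with F test adjusted p of 0.00281 and 0.0021. They had little room to fall there, so their F test cannot separate a different response from low expression. The mean over lines of KRT14 (1.40 ± 0.17, adjusted p 0.000926), KRT5 (-1.32 ± 0.20, adjusted p 0.00297) and KRT6B (-1.12 ± 0.14, adjusted p 0.00119) therefore combines a large difference in PC9 with values near 0 elsewhere.

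KRT6A had more expression outside PC9 than KRT6B. In HCC4006 it stood at 7.78 and 7.53 FPKM in DMSO and at 3.47 and 0 in dormant cells, and in HCC827 at 2.09 and 0.110 in DMSO and 0.880 and 0.730 in dormant cells. Neither line was called, with adjusted p of 0.0976 and 1. The mean over lines was -1.89 ± 0.40 (adjusted p 0.0125) and kept its call with each library left out.

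**Figure D4:**
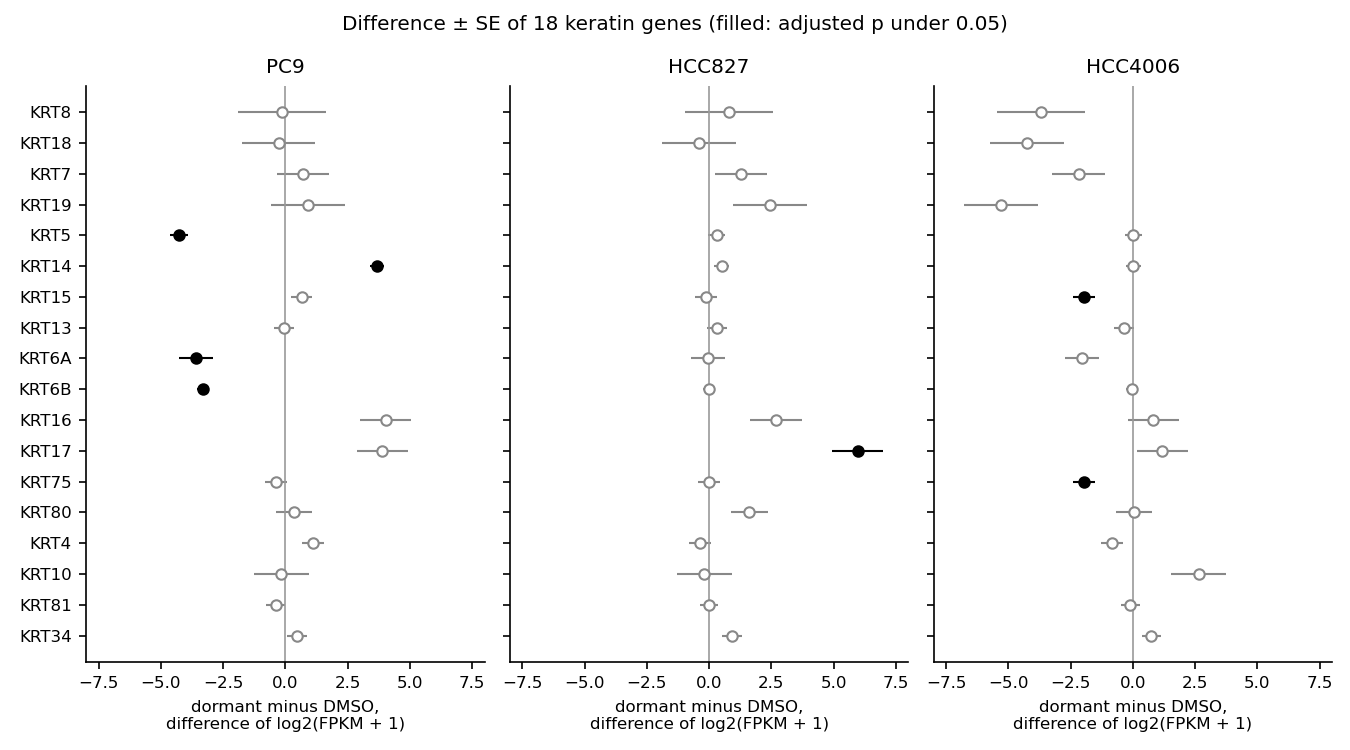
Difference between dormant and DMSO cells in log2(FPKM + 1), with its SE, for the 18 tested keratins in each line, filled where the adjusted p is under 0.05. Called differences are KRT14 (3.67), KRT5 (-4.28), KRT6A (-3.60) and KRT6B (-3.31) in PC9, KRT17 (5.97) in HCC827, and KRT15 (-1.97) and KRT75 (-1.96) in HCC4006.

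None of the 4 simple keratins was called in a line or in the mean over lines with all libraries. KRT8, the type II chain present in nearly all simple epithelia, stood at 7249 and 6645 FPKM in PC9 DMSO and 5347 and 7352 in dormant cells, which overlapped. In HCC827 it stood at 1314 and 103 in DMSO and 726 and 570 in dormant cells, and in HCC4006 at 941 and 841 in DMSO and 686 and 5.87 in dormant cells. The mean difference over lines was -1.01 ± 1.02 (adjusted p 0.519), and -0.52 ± 0.13 (adjusted p 0.0134) without the 2 libraries. In that fit KRT8 was called lower in HCC827 (-1.03 ± 0.24, adjusted p 0.0207), and not in PC9 (-0.15, adjusted p 0.685) or HCC4006 (-0.38, adjusted p 0.311).

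KRT18, its type I partner, stood at 5625 and 5370.1 FPKM in PC9 DMSO and 3439 and 5982 in dormant cells. In HCC827 it stood at 2961 and 276 in DMSO and 753 and 632 in dormant cells, and in HCC4006 at 1587 and 1639 in DMSO and 526 and 13.0 in dormant cells. Against the first DMSO library the HCC827 dormant mean was 4.27-fold lower, and in HCC4006 the first dormant library was 3.06-fold lower than the DMSO mean. Without the 2 libraries these were called, at -2.10 ± 0.30 (adjusted p 0.00181) in HCC827 and -1.61 ± 0.30 (adjusted p 0.00673) in HCC4006, and the mean over lines was -1.33 ± 0.16 (adjusted p 0.000298). With all libraries it was -1.63 ± 0.86 (adjusted p 0.215).

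The KRT18 to KRT8 ratio is less exposed to a library in which both are low. In HCC827 it was 2.25 and 2.70 in DMSO cells, although the second library held far less of both transcripts, and 1.04 and 1.11 in dormant cells. In HCC4006 it was 1.69 and 1.95 in DMSO cells and 0.768 and 2.21 in dormant cells, so the dormant values lay on both sides. In PC9 it was 0.776 and 0.808 in DMSO and 0.643 and 0.814 in dormant cells, which overlapped. The 2 genes are next to each other on chromosome 12, where KRT18 is the only type I gene of the cluster. KRT18 shared 14.3% and KRT8 10.1% of their 50-base stretches with other genes, most of all with the pseudogenes KRT18P11 and KRT8P3.

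KRT19, a small type I chain that lacks the usual tail, had different values by line. It stood at 2380 and 2014 FPKM in PC9 DMSO and 2945 and 5696 in dormant cells, and at 3155 and 237 in HCC827 DMSO and 4684 and 4807 in dormant cells. In HCC4006 it stood at 2446 and 2533 in DMSO and at 363 and 9.91 in dormant cells, without overlap. The HCC4006 difference was -5.30 ± 1.49 (adjusted p 0.0651). With the 2 libraries left out it was -2.77 ± 0.33 (adjusted p 0.000778), the first dormant library being 6.85-fold below the DMSO mean, while PC9 gave 0.90 ± 0.27 (adjusted p 0.0415). The F test between lines gave an adjusted p of 0.213 with all libraries and 0.00219 without the 2. As a share of keratin FPKM, KRT19 made up 28.0% and 20.4% in HCC827 DMSO and 47.6% and 50.5% in dormant cells, and 20.4% and 23.8% in HCC4006 DMSO and 6.45% and 1.64% in dormant cells.

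KRT7, the type II chain of glandular epithelia used to type lung adenocarcinoma, was the leading keratin of HCC4006 in all 4 libraries. It stood at 6908 and 5530 FPKM in HCC4006 DMSO and 3894 and 479 in dormant cells, at 3775 and 523 in HCC827 DMSO and 3505 and 3365 in dormant cells, and at 1388 and 2428 in PC9 DMSO and 2409 and 3782 in dormant cells. No difference was called in any line, with or without the 2 libraries, and the mean over lines was -0.06 ± 0.61 (adjusted p 0.957). The type I share of keratin FPKM in HCC4006 was 33.8% and 39.4% in DMSO and 16.5% and 15.3% in dormant cells. In HCC827 it was 54.6% and 45.3% in DMSO and 56.7% and 58.3% in dormant cells.

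KRT15, a type I chain of basal and progenitor cells, fell in HCC4006, from 3.22 and 4.56 FPKM to 0.500 and 0.020, with a difference of -1.97 ± 0.43 (adjusted p 0.0304). When both libraries were left out the difference was -1.69 ± 0.28 (adjusted p 0.00433) and the first dormant library was 7.78-fold below the DMSO mean. Its mean over lines in that fit was -0.53 ± 0.15 (adjusted p 0.0217). With all 12 libraries the call was lost, at an adjusted p of up to 0.14, when any PC9, HCC827 dormant or HCC4006 DMSO library was left out. KRT15 had no call in PC9, at 10.6 and 12.04 and then 18.9 and 17.7 FPKM, or in HCC827, at 17.4 and 9.34 and then 11.3 and 11.8.

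KRT75, a type II chain of the hair follicle companion layer, was a keratin of HCC4006. It stood there at 17.5 and 16.9 FPKM in DMSO and 7.02 and 1.74 in dormant cells, with a difference of -1.96 ± 0.43 (adjusted p 0.0317). It was listed at 0 in all 4 HCC827 libraries and stayed at or below 0.415 FPKM in PC9. The call was lost, at an adjusted p of up to 0.19, when any library other than the HCC4006 dormant ones was left out. Without the 2 libraries the difference was -1.18 ± 0.23 (adjusted p 0.00901) and the mean over lines -0.52 ± 0.13 (adjusted p 0.0099).

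KRT13, a type I chain of the lining of mouth and oesophagus, was a keratin of PC9 in both states. It stood at 1081 and 961 FPKM in DMSO and 785 and 1250.2 in dormant cells, which overlapped, and at or below 0.410 FPKM in both other lines. Its usual type II partner KRT4 was far lower, at 0.170 and 0.075 FPKM in PC9 DMSO and 1.63 and 1.26 in dormant cells. The PC9 difference of KRT4 was 1.12 ± 0.44 (adjusted p 0.313), and adjusted p was 0.00633 without the 2 libraries. The same fit called KRT4 lower in HCC827 (-0.95 ± 0.26, adjusted p 0.0364) and different between lines (adjusted p 0.0114). In HCC827 KRT4 stood at 4.60 and 1.46 and then 1.53 and 2.31 FPKM, and in HCC4006 at 1.45 and 1.54 and then 0.980 and 0.

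KRT80, a widely expressed type II chain, was not called with all libraries. It stood at 14.02 and 7.03 FPKM in HCC827 DMSO and 33.2 and 32.4 in dormant cells, without overlap, and at 44.7 and 39.9 in HCC4006 DMSO and 108 and 17.7 in dormant cells. In PC9 it stood at 13.0 and 12.4 and then 14.6 and 18.3. The mean over lines was 0.68 ± 0.42 (adjusted p 0.29). With the 2 libraries left out it was 0.95 ± 0.14 (adjusted p 0.0008), with ratios of 2.34 in HCC827 and 2.56 in HCC4006. Of the keratins of hair, KRT81 stayed at or below 3.45 FPKM and KRT34 at or below 1.82, and neither was called with all libraries. KRT34 reached 1 FPKM only in dormant libraries, at 1.62 and 1.22 in HCC827 and 1.82 in the second of HCC4006. It thus passed the filter through dormant cells, where it was high. Without the 2 libraries its difference in the mean over lines was 0.41 ± 0.10.

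The untreated lines already differed in their keratins. PC9 against HCC827 gave 6 keratins higher and 1 lower of 18, beside 8.25% of all tested genes called, 4.14% higher and 4.11% lower. The 6 were KRT13 (9.88 ± 0.40), KRT5 (5.81 ± 0.35), KRT6A (5.80 ± 0.69), KRT17 (5.57 ± 1.02), KRT6B (3.78 ± 0.25) and KRT14 (1.64 ± 0.29), and the lower gene was KRT4 (-1.73 ± 0.44, adjusted p 0.0407). Adjusted p of the 6 ran from 2.71e-06 for KRT13 to 0.00905 for KRT17. Of these, KRT13, KRT5, KRT6B and KRT14 reached 1 FPKM only in PC9 libraries. They thus passed the filter through the line where they were high. The KRT14 call was lost without the first PC9 DMSO (adjusted p 0.114) or second HCC827 DMSO library (0.0504), and the KRT17 call without any PC9 DMSO or the second HCC827 DMSO library, at up to 0.092. The KRT4 call was lost in 9 of 12 cases, all but the second HCC827 DMSO and both HCC4006 dormant libraries, at up to 0.256.

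HCC4006 against PC9 shares the PC9 controls with that comparison. It gave 6 keratins lower and 1 higher, beside 8.25% of all tested genes called, 2.76% lower and 5.48% higher. KRT13 (-9.65 ± 0.40), KRT5 (-5.60 ± 0.35), KRT17 (-5.10 ± 1.02), KRT6A (-3.57 ± 0.69), KRT6B (-3.48 ± 0.25) and KRT14 (-1.59 ± 0.29) were lower and KRT75 (3.74 ± 0.43) was higher in HCC4006. KRT75 reached 1 FPKM only in HCC4006 libraries, and KRT13, KRT5, KRT6B and KRT14 only in PC9 ones. Each of these passed the filter through the line where it was high. The KRT17 and KRT6A calls were lost when any PC9 DMSO or HCC4006 DMSO library was left out, at up to 0.118 and 0.114, and the KRT14 call without either PC9 DMSO or the second HCC4006 DMSO library, at up to 0.129. HCC4006 against HCC827 gave 1 keratin, KRT75 (4.18 ± 0.43, adjusted p 0.000573), which was higher, beside 5.36% of all tested genes, 3.52% higher and 1.84% lower. When both libraries were left out the 3 comparisons called 9, 15 and 6 keratins, beside 25.6%, 43.1% and 19.7% of all tested genes. KRT8 was then also called higher in PC9, by 2.40 ± 0.24 over HCC827 (adjusted p 0.000199), and lower in HCC4006 than in PC9 (-2.96 ± 0.20, adjusted p 1.1e-05).

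KRT5 and KRT75 lie in 1 run of type II genes on chromosome 12, in the order KRT75, KRT6B, KRT6C, KRT6A, KRT5 of the RefSeq annotation of GRCh38.p14. KRT6B, KRT6A and KRT5 were high in untreated PC9 and KRT75 in HCC4006, so the line that expressed a gene changed within this run. The promoters of both end genes are shown for that reason, from 250 bases before to 50 after the start, both on the minus strand of GRCh38.p14, KRT5 at chr12:52520345-52520644 and KRT75 at chr12:52434322-52434621. Capitals mark matches to the TEAD motif GGAATG, searched because YAP, named in the study's title, acts through TEAD factors, and to the AP-2 motif GCCNNNGGC, both searched on both strands.
KRT5: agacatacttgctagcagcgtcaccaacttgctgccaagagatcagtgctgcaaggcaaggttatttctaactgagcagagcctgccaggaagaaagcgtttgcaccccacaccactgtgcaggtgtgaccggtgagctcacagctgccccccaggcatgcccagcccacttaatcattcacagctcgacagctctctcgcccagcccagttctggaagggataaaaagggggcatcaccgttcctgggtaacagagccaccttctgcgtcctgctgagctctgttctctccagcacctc
KRT75: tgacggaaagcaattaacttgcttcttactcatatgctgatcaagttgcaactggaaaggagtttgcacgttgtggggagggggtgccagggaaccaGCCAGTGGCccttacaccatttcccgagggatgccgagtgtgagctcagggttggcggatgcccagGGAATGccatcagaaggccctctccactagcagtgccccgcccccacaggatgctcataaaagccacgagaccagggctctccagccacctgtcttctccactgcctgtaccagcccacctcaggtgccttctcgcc

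KRT75 held GGAATG at bases 164 to 169 of the 300 shown and an AP-2 match, GCCAGTGGC, at bases 98 to 106, and KRT5 held neither. Of 27305 RefSeq promoters of 300 bases, 14% held GGAATG or its reverse and 23.0% the AP-2 motif, against 4 and 5 of the 34 keratin promoters in that table. The AP-1 motif TGANTCA was in 0 of the 34 and in 7.76% of all promoters. TATAAA was in 20 of the 34 keratin promoters and in 12% of all. Promoters of 6 tested keratins, KRT4, KRT5, KRT8, KRT10, KRT34 and KRT75, were in the table. These matches describe letters in a window and show no binding.

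The second HCC4006 dormant library carried a set of keratins of its own. KRT10, a type I chain of differentiating epidermis, was listed there at 59.9 FPKM, against 0.530 to 1.39 in the other 11 libraries. The 6 keratins that reached 1 FPKM in 1 library only did so in this one: KRT32 at 3.86 FPKM, KRT27 at 1.99, KRT78 at 1.98, KRT71 at 1.71, KRT79 at 1.13 and KRT38 at 1.07, where the next highest library had at most 0.845. These are keratins of hair, root sheath and skin. In the same library KRT16, KRT6A, KRT5, KRT14 and KRT4 were listed at 0, GAPDH, a glycolytic enzyme gene used as a loading control, stood at 6.73 FPKM against 3755 to 19645 elsewhere, and depth was lowest. The part of these in the keratin values was not tested. The mean difference of KRT10 over lines was 0.76 ± 0.64 (adjusted p 0.436), and 0.07 ± 0.13 (adjusted p 0.692) without the 2 libraries. Leaving out only the first HCC4006 dormant library, which leaves this one alone in its group, raised the count of keratins called in the mean over lines. The share of all tested genes called in that fit is not given here, so the rise cannot be read as particular to keratins.

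Genes that anchor, modify or regulate keratins were counted in 5 lists, with the mean over lines and the 15.4% background given above. Of 9 tested genes of the desmosome, the junction to which keratins attach, 2 were called, both higher, with a list median of 0.68. PERP, a desmosomal membrane protein, rose by 1.84 ± 0.41 and DSP, desmoplakin, which binds keratins directly, by 0.77 ± 0.21 (adjusted p 0.0148 and 0.0329). Of 12 keratin linkers and regulators 2 were called, both higher, with a median of 0.26. KLHL24, a ubiquitin ligase adaptor known to target KRT14, rose by 2.34 ± 0.31, and PPL, periplakin, by 1.35 ± 0.22, calls that held with each library left out. KLHL24 stood between 0.560 and 1.25 FPKM in the 6 DMSO libraries and between 2.23 and 30.9 in the 6 dormant ones, without overlap.

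Of 11 other intermediate filament genes 3 were called, all higher, with a median of 0.28. They were BFSP1, a lens filament protein, at 1.15 ± 0.26, VIM, the mesenchymal filament vimentin, at 1.14 ± 0.33, and NEFM, a neurofilament chain, at 0.45 ± 0.10. NEFM was listed at 0 in every PC9 and HCC827 library and differed by 1.34 in HCC4006. VIM went from 26.0 and 7.23 FPKM to 205 and 212 in HCC827 (3.81 ± 0.57, adjusted p 0.00646), from 217 and 184 to 504 and 654 in HCC4006 (1.52 ± 0.57, adjusted p 0.118) and from 11.7 and 10.8 to 2.04 and 2.48 in PC9 (-1.91 ± 0.57, adjusted p 0.147). Of 4 tested cornified envelope genes 2 were called, both higher, with a median of 0.86: TGM1, the transglutaminase that crosslinks the envelope, at 1.85 ± 0.33, and KLK7, a skin protease, at 1.21 ± 0.20, with KLK7 at 20.7 and 19.0 and then 313 and 353 FPKM in PC9. Of 13 transcription factors of keratinocytes 2 were called, both higher, with a median of 0.71, GRHL1 at 0.87 ± 0.19 and GRHL3 at 0.71 ± 0.13. GRHL3 differed by 1.01 in PC9, 1.16 in HCC827 and -0.04 in HCC4006. TGM1, GRHL3 and NEFM reached 1 FPKM only in dormant libraries, so they passed the filter through the cells where they were high. BFSP1 and KLHL24 also needed dormant libraries to pass it. With 1 library left out at a time, the calls of DSP and VIM were lost in 9 and 8 of 12 cases (adjusted p up to 0.119 and 0.124), that of GRHL1 in 5 (0.0615) and those of PERP, BFSP1 and NEFM in 4 each (0.0549, 0.0648 and 0.0619). In every such case the library left out was another than the first HCC827 DMSO and the HCC4006 dormant libraries. With the 2 libraries that stood apart left out, list medians were 0.28 (desmosome), 0.17 (linkers and regulators) and 0.09 (other intermediate filaments). They were 1.13 (cornified envelope) and 0.21 (transcription factors), beside 0.20 for all tested genes. Without the 2 libraries that stood apart 4 desmosome, 3 cornified envelope and 5 transcription factor genes were called, all higher. Of the linkers and regulators 3 were then higher and 2 lower, and of the other intermediate filament genes 4 higher and 3 lower, beside 42.9% of all tested genes.

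The labelled cell type was checked against markers. All 6 epithelial markers, among them EPCAM and CDH1, reached 1 FPKM in both libraries of every group, except in HCC827 DMSO, where 5 of 6 did. They summed to between 319 and 420 FPKM in PC9 DMSO and between 758 and 1075 in dormant cells. Most of that dormant sum was CLDN4, and GRHL2 and ESRP1 were lower there. In HCC827 the sums were 139 to 402 in DMSO and 503 to 543 in dormant cells. In HCC4006 they were 322 to 474 and then 373 to 569, which overlapped. Fibroblast markers summed to at most 12.2 FPKM, haematopoietic to 1.09 and endothelial to 3.05, so the keratin values come beside almost none of their defining transcripts. Squamous markers are the closest to the basal and stress keratins. TP63, the master regulator of basal keratinocytes, stayed at or below 0.155 FPKM in PC9, and DSG3 at or below 0.010 in every library. The 5 squamous markers summed to 45.2 and 53.1 FPKM in PC9 DMSO and to 8.81 and 9.12 in dormant cells, beside the drop of KRT5 and KRT6A and the rise of KRT14 and KRT17, and in HCC4006 to between 4790 and 6397 in DMSO and between 183 and 285 in dormant cells, nearly all S100A2. Mesenchymal markers summed to between 12.03 and 37.4 FPKM in HCC827 DMSO and between 269 and 280 in dormant cells, beside the rise of KRT17 there. They summed to between 217 and 238 in HCC4006 DMSO and between 560 and 832 in dormant cells, beside the fall of KRT15 and KRT75 and the lower KRT18 and KRT19. In PC9 they summed to between 20.8 and 22.4 in DMSO and between 64.0 and 74.9 in dormant cells. That stood beside the basal and stress keratins that changed there. Most of the sum in dormant PC9 was FN1, which went from 5.51 and 7.98 to 57.8 and 69.0 FPKM. CDH2 and TWIST1 were also higher there, at no more than 2.82 and 0.230 FPKM, and VIM, SNAI2 and ZEB1 were lower. The part of these markers in the keratin results was not tested.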

How the data were processed

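Bulk stranded mRNA libraries were compared, 2 for each of 6 groups. The deposited values are FPKM computed by the authors, in 24 columns, 2 (R1 and R2) for each library. What each column of a library holds is not stated, so both were averaged. For 144 keratin values of at least 1 FPKM they differed by a median of 2.13% and at most 61.9%. The submitters' processing notes list, without roles, DESeq2 1.10.1, Cufflinks 2.2.1, STAR 2.5.1b and the builds hg19 and GRCh37. Genes that reached 1 FPKM in 2 or more libraries entered a limma model (version 3.58.1, R 4.3.3, lmFit and trended eBayes) of log2(FPKM + 1) with 1 coefficient per group, with 6 residual and 3.8 prior degrees of freedom. The 8 tests were two-sided, adjusted by Benjamini-Hochberg over all genes tested and called under 0.05. The procedure was tested on simulated data. The pseudocount understates changes of low genes. The spacing of low FPKM values in U6 pseudogenes gave each library's relative depth.

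Members, lists and tests were chosen with earlier results of these data known. Keratins with a group mean of at least 10 FPKM or a call are given in full, and others by range. From each list up to 4 called genes with the largest mean difference are named. The list genes EPPK1 and NEFL had no row with that symbol and are not analysed here. Alternatives were other pseudocounts, filters, scalings, value columns, a replicate block, leaving out each library, and leaving out both libraries that stood apart. The correlation of the deviations of same-numbered libraries ran from -0.29 to 0.47 over 15 pairs of groups, with 4 over 0.1. Some same-numbered libraries thus deviated together in part. Promoters and gene order come from RefSeq on GRCh38.p14, coding sequences from GENCODE v29 transcripts, neither on the build of the values. Tables and figures were made in Python 3.11.15 (numpy 2.4.6, pandas 2.3.3, matplotlib 3.10.9).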

Additional observations from a re-analysis of the deposited data

Results flagged for a closer look

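For 3 keratins the difference between dormant and DMSO cells itself varied between the cell lines, by limma's moderated F test adjusted over all genes tested. These were KRT6B (adjusted p 0.0021), KRT5 (adjusted p 0.00281) and KRT14 (adjusted p 0.00381). The differences of KRT6B were -3.31 in PC9, 0.00 in HCC827 and -0.04 in HCC4006. Those of KRT5 were -4.28, 0.30 and 0.02, and those of KRT14 were 3.67, 0.51 and 0.02. All 3 genes stayed below 1 FPKM in every library of HCC827 and HCC4006, so KRT5 and KRT6B had little room to fall there. KRT6B passed the filter through the PC9 DMSO libraries alone. No cause of these differences was tested.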

How the results depend on the processing

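The counts below are keratins called of the 18 tested, by limma. Without both libraries that stood apart the counts became 12 in the mean over lines, 8 in PC9, 7 in HCC827, 7 in HCC4006, 9 for the difference between lines, and 6 and 15 for untreated HCC4006 against HCC827 and against PC9. With the 3 cell lines as the replicates, the mean over lines had 0 called and 3 at an unadjusted p under 0.05. A pseudocount of 0.1 gave 2 in HCC827, 1 in HCC4006, 2 for untreated HCC4006 against HCC827, and 0 for the difference between lines, with 8 at an unadjusted p under 0.05. No filter gave 0 in HCC4006, with 6 of 48 at an unadjusted p under 0.05. Untreated HCC4006 against HCC827 had 3 under quantile normalization and 2 under median of ratios scaling. Leaving out 1 library at a time gave 5 to 14 in the mean over lines, 3 to 6 in PC9, 0 to 4 in HCC827, 0 to 13 in HCC4006, 3 to 16 for the difference between lines, and 4 to 11, 1 to 5 and 4 to 13 for untreated PC9 against HCC827, HCC4006 against HCC827 and HCC4006 against PC9. Shares of all tested genes called are given above only for the fit reported and the one without both libraries. The other counts can therefore not be read as particular to keratins. The highest counts for the mean, HCC4006 and the difference came without the first HCC4006 dormant library. The cause was not tested.

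The fit reported did not pair samples by replicate number, and whether the numbers pair them is not known. A fit with the replicate block gave 6 keratins in the mean over lines, 4 in PC9, 1 in HCC827, 2 in HCC4006, 3 for the difference between lines, and 7, 1 and 7 between untreated lines, the same counts as without it.

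For single keratins, 789 values kept direction and side of the threshold, 84 lost a call, 21 gained one and 22 changed sign, none of the last being called in the fit reported. All were means over lines. Apart from leaving out 1 library, the sign changed for KRT13 (0.022 under quantile normalization, 0.046 from the R1 column alone), KRT4 (0.030 with a pseudocount of 0.1, 0.018 from the R1 column alone) and KRT7 (0.082 under quantile normalization). With 1 library left out, the mean ran from -0.022 to 1.55 for KRT10, -0.13 to 0.093 for KRT13, -1.49 to 0.19 for KRT19, -0.22 to 0.18 for KRT4, -0.56 to 0.45 for KRT7, -2.12 to 0.094 for KRT8 and -0.38 to 0.052 for KRT81. Low FPKM values near 0 carry the least depth, and no counting interval can be given for them.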
